A study of Homo sapiens with 21 samples.

Results

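The ZNF genes are human genes named for zinc fingers, short protein folds held together by a zinc ion that in most members bind DNA. The set described here holds 384 genes of an mRNA count table of 23368 features: those whose symbol is ZNF followed by a number, with or without a letter, and whose mean over the 8 libraries was at least 5 CPM (counts per 1000000, the raw count over the library's total). There were 529 symbols of that form in the table, and the other 145 fell below the minimum. The members were chosen by their level in these same libraries, so their levels are given as a description only. The difference between treatments was not part of the rule. It can still shift the edge of the set: 21 members had a mean below 5 CPM in the treated libraries, 18 of which were called lower, and 3 had a mean below 5 CPM in the vehicle libraries, 1 of which was called higher. Just inside the minimum were ZNF514, at 5.03 CPM, and ZNF569, at 5.11 CPM, and just outside it were ZNF230, at 4.98 CPM, and ZNF836, at 4.94 CPM.

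The study asked how cyclosporine A, an inhibitor of the phosphatase calcineurin that is used against transplant rejection and can harm the kidney, alters messenger RNAs and microRNAs of kidney tubule cells. HK-2 cells, an immortalised line from the proximal tubule of a human kidney, were grown in a keratinocyte medium with epidermal growth factor at 5 ng/ml and pituitary extract from cattle at 0.05 mg/ml. For mRNA and for miRNA, 4 libraries came from cells given 5 µg/mL cyclosporine A for 48 h and 4 from cells given the vehicle, 0.1% ethanol, for the same time. Argonaute 2 (AGO2) binding sites were mapped by PAR-CLIP after 24 h of the same treatments, with 2 libraries for each treatment, 100 µM 4-thiouridine and crosslinking at 365 nm and 0.15 J/cm2. A further library used an antibody to all Argonaute proteins, and its treatment was not given. All groups are 1 cell line, so every library shares the same genome and the same immortalising change. Whether the 4 libraries of a group were grown apart is not stated, and p-values speak for the spread among libraries, whether technical or biological.

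Most ZNF proteins carry rows of C2H2 zinc fingers, and a large share also carry a KRAB domain. KRAB binds the corepressor TRIM28 (KAP1), which brings the histone methyltransferase SETDB1 and heterochromatin proteins to the bound DNA, often a transposable element. The KRAB genes multiplied by tandem duplication and lie in clusters, most of them on chromosome 19, while other ZNF proteins bind promoters, join corepressor complexes, bind RNA or act on ribosomes.

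The 8 mRNA libraries held between 3965431 and 7041604 counts. Of 16 proximal tubule markers 6 reached 5 CPM, among them PAX8, CDH6, GGT1 and SLC5A2, while SLC22A6, SLC22A8 and HNF4A were at 0 in every library and LRP2, CUBN and AQP1 were below 1 CPM. All 6 epithelial markers reached 5 CPM. The summed level of 7 markers of distal tubule and collecting duct was 2.80 to 4.20 CPM in the vehicle and 0.904 to 2.00 CPM in the treated libraries, and that of 9 endothelial, immune and stromal markers was 2.37 to 4.29 and 0.757 to 1.91 CPM, with UMOD, AQP2, PECAM1, PTPRC and CD3E at 0 in all 8. The epithelial sum was 1518 to 1569 CPM in the vehicle and 1323 to 1458 CPM in the treated libraries, and the proximal tubule sum 1546 to 1636 and 1295 to 1371 CPM. Single markers moved both ways: CLDN1, EPCAM, CDH1, CDH6, PDZK1 and GGT1 were lower. KRT8, KRT18, KRT19, MME and PAX8 had treated ranges above their vehicle ranges, and the ranges of SLC5A2 overlapped. PDZK1 was at 51.9 to 62.0 CPM in the vehicle and 11.95 to 15.1 CPM in the treated libraries. GGT1 was at 141 to 167 and 89.5 to 107 CPM. Without CLDN1 the epithelial sum was 733 to 813 CPM in the vehicle and 841 to 945 CPM in the treated libraries. Without CDH6 the proximal tubule sum was 1139 to 1188 and 1239 to 1321 CPM. PAX8 made up most of that sum, at 832 to 862 and 888 to 973 CPM. The part of these shifts in the results on the ZNF genes was not tested. In bulk RNA, fewer cells of a kind and less RNA per cell cannot be told apart.

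Falls outnumbered rises among the ZNF genes, while among all genes of the same level minimum they did not. After 48 h of cyclosporine A, 83 members (21.6%) were higher, 143 (37.2%) were lower and 158 were not called, by edgeR's quasi-likelihood test at a Benjamini-Hochberg adjusted p under 0.05 over all 12855 genes tested. The drug changed the transcriptome widely: 33.3% of all genes tested were higher and 33.5% lower, and among the 11574 genes tested at 5 CPM or more these shares were 35.6% and 33.1%. The share of members that fell was therefore a little above this background, and the share that rose was clearly below it. This background is not matched for level, and shares by level are given below. The median log2 fold change of the members, treated over vehicle, was -0.14, with quartiles of -0.47 and 0.22 and a range from -1.69 to 2.99, and that of all genes at 5 CPM or more was 0.03. A log2 fold change below 0 was found in 228 members (59.4%) and in 48.2% of genes at 5 CPM or more.

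Counts of members whose libraries did not overlap between treatments gave the same picture. All 4 treated libraries lay above all 4 vehicle libraries for 70 members (18.2%, against a background of 31.1%), and below them for 115 (29.9%, against 28.5%). Large changes were few. Only 6 members (1.56%) were called with a log2 fold change of 1 or more, where the background was 4.22%, and 20 (5.21%) with one of -1 or less, where it was 6.01%. ZNF697 alone rose more than 3-fold.

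**Figure D1:**
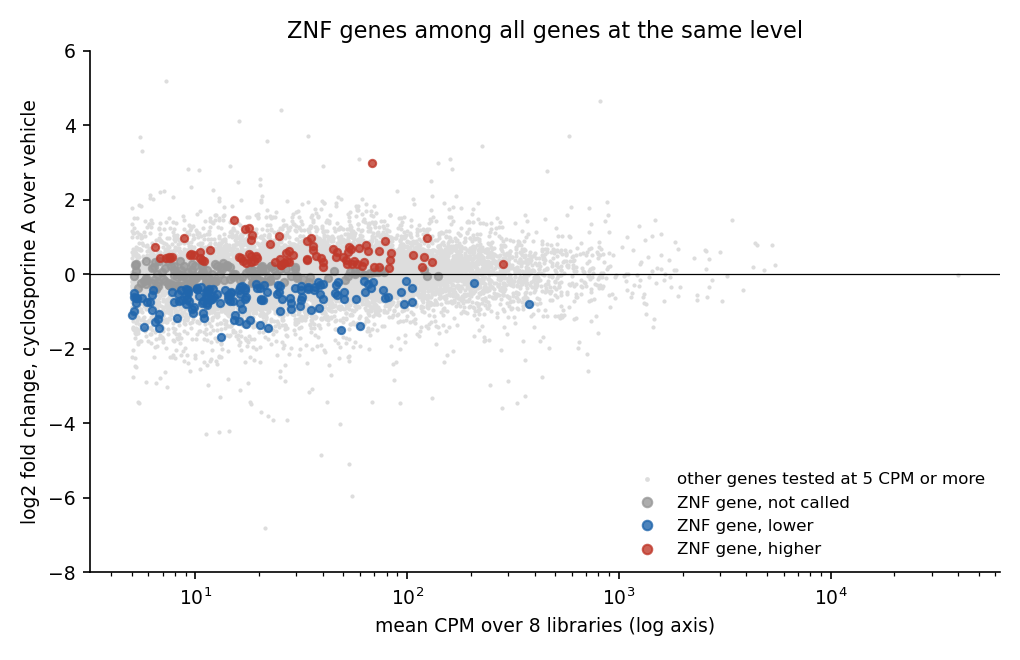
Log2 fold change of treated over vehicle libraries (y axis) against mean CPM over the 8 libraries (x axis, log scale); each large point is 1 of the 384 ZNF genes, coloured by its call, and each small grey point another gene tested at 5 CPM or more. The ZNF genes sit at the low end of the level axis, with a median of 16.6 CPM against 35.8 CPM for all genes, and ZNF697 stands above the other members.

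ZNF mRNAs are scarce, and the share of genes called depends on level. The median member had 16.6 CPM, against 35.8 CPM for all genes tested at the same minimum, and 8 was the lowest count of any member in any library. At 5 to 10 CPM, 10 of 107 members were higher and 35 lower (9.35% and 32.7%, against 16.7% and 36.9% of all genes at that level). At 10 to 20 CPM, 20 of 119 members were higher and 50 lower (16.8% and 42.0%, against 25.8% and 35.6%). At 20 to 50 CPM, 26 of 96 were higher and 39 lower (27.1% and 40.6%, against 36.7% and 31.7%). Among the 62 members at 50 CPM or more, 27 were higher and 19 lower (43.5% and 30.6%, against 45.4% and 31.7%). The share of rises was below the background share in each class under 50 CPM and close to it above, and the share of falls was above the background share from 10 to 50 CPM. At 5 to 10 and at 10 to 20 CPM falls outnumbered rises among all genes as well. Of the 145 symbols below the minimum 67 could be tested, and of these 6 were higher and 20 lower (8.955% and 29.85%). The shares over all genes tested below the minimum were not taken. In the nearest class, 5 to 10 CPM, they were 16.7% and 36.9%.

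**Figure D2:**
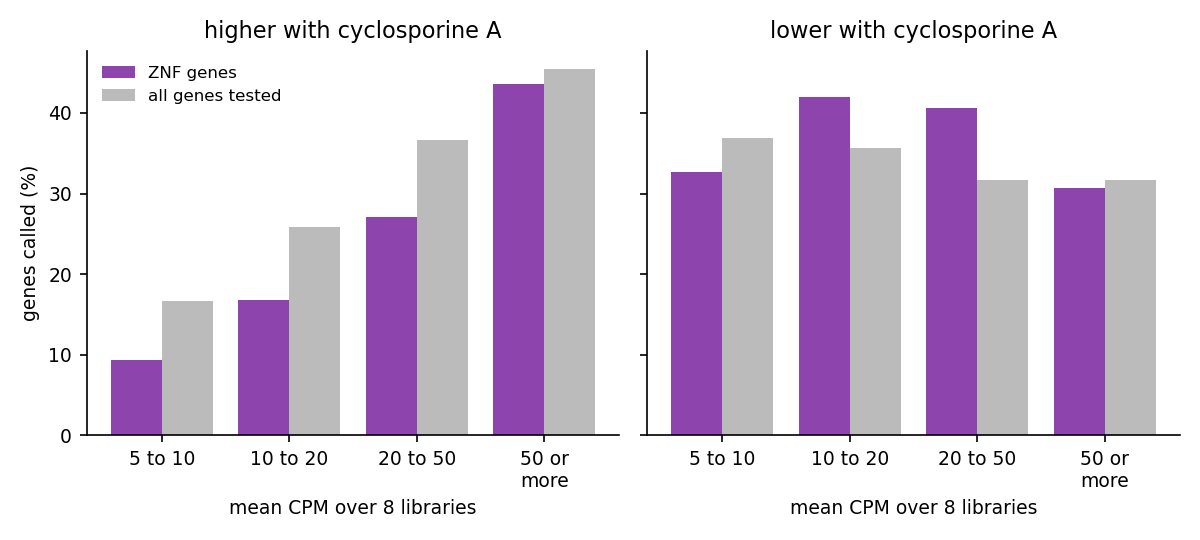
Percent of genes called higher (left) and lower (right) with cyclosporine A by mean CPM, for the ZNF genes (purple) and all genes tested at that level (grey). The ZNF bars for rises lie below the grey bars under 50 CPM, as at 5 to 10 CPM with 9.35% and 16.7%, and nearly meet them at 43.5% and 45.4% in the top class.

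Summed over the set, the members took a smaller share of the library after the drug. Their summed counts were 1.13%, 1.11%, 1.09% and 1.10% of the total in the 4 vehicle libraries and 1.00%, 1.03%, 1.07% and 1.04% in the 4 treated libraries. The ranges did not overlap, and the gap between them was small. Part of the drop came from ZNF608, the most abundant member by CPM. Its mean raw count over the library's total went from 485 to 271 CPM. The sum without ZNF608 was not taken, so whether the ranges stay apart without it was not tested.

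ZNF697 had the largest rise of any member. Its level was 16.7, 14.2, 15.5 and 15.4 CPM in the vehicle libraries (CPM after scaling by trimmed mean of M values, TMM, as for all values by library here) and 130, 115, 118 and 130 CPM in the treated ones. The groups were far apart, with a 7.93-fold rise (log2 fold change 2.99 ± 0.09, SE, adjusted p = 7.93e-37, edgeR). The gene lies on chromosome 1, outside the neighbour clusters of the family.

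A group of rises of about 2-fold to 3-fold followed. ZNF460, a KRAB gene of chromosome 19, was at 10.5, 9.39, 5.51 and 6.77 CPM in the vehicle libraries and 22.8, 22.0, 23.5 and 22.5 CPM in the treated ones. Its vehicle values spread nearly 2-fold, while the treated values were close together, and the log2 fold change was 1.45 ± 0.14 (edgeR adjusted p = 2.17e-13). ZNF143, an activator that binds many promoters and the ends of chromatin loops, rose from 10.8, 11.4, 9.74 and 10.8 CPM to 28.0, 24.4, 27.8 and 21.0 CPM. Its lowest treated library was above its highest vehicle library by nearly 2-fold, and the log2 fold change was 1.25 ± 0.13. ZNF333, also KRAB, went from 10.5 ± 1.08 CPM (SD, n = 4) to 24.1 ± 2.00 CPM, and ZNF267 from 12.1 ± 1.89 to 25.2 ± 1.14 CPM. ZNF259, whose current symbol is ZPR1 and whose protein binds translation elongation factor 1A, rose from 17.6, 14.9, 16.9 and 16.3 CPM to 33.3, 35.4, 31.1 and 34.0 CPM, a log2 fold change of 1.02 ± 0.10.

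The remaining rises among the 12 largest lay between 1.75-fold and 1.97-fold. ZNF318, a nuclear protein known for its part in the alternative processing of immunoglobulin transcripts, was the most abundant of them by CPM, at 84.1 ± 4.24 CPM in the vehicle and 166 ± 4.67 CPM in the treated libraries. ZNF275 rose 1.96-fold and ZNF787 1.87-fold, the latter with treated libraries as far apart as 101, 105, 83.7 and 123 CPM. ZNF668 rose 1.75-fold, and its highest vehicle library, at 18.5 CPM, was still below its lowest treated one, at 25.6 CPM.

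The largest fall was that of ZNF738, which lies in a cluster of the family on chromosome 19. Its level was 19.3, 19.3, 18.8 and 22.6 CPM in the vehicle libraries and 4.94, 6.11, 7.59 and 6.14 CPM in the treated ones. It fell by 1.69 on the log2 scale (SE 0.15, edgeR adjusted p = 9.30e-15), and every treated library was below every vehicle library. ZNF323, whose current symbol is ZSCAN31 and which carries a SCAN domain for pairing with other SCAN proteins, fell from 75.9, 72.3, 66.7 and 70.2 CPM to 25.1, 24.4, 26.9 and 24.6 CPM. Its treated libraries were close together and far below the vehicle range, and the log2 fold change was -1.50 ± 0.09.

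**Figure D3:**
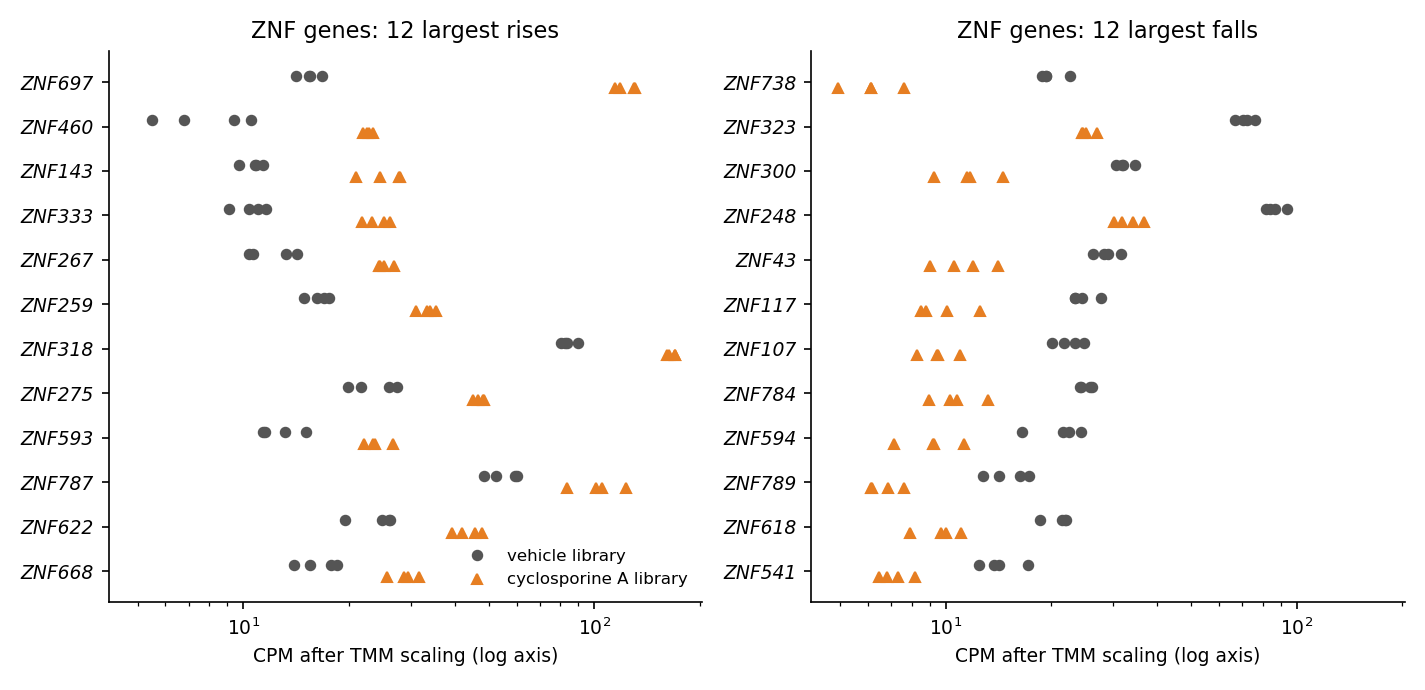
CPM after TMM scaling (x axis, log scale) of the 12 largest rises (left) and 12 largest falls (right) among ZNF genes with at least 50 mean counts, an adjusted p under 0.05 and no overlap between the groups; grey circles are the 4 vehicle and orange triangles the 4 treated libraries. ZNF697 is the widest separation, from about 15 to over 110 CPM, and ZNF248 and ZNF323 are the most abundant of the falls.

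Falls of over 2-fold were spread over several chromosomes. ZNF248, on chromosome 10, fell from 93.9, 86.5, 81.5 and 83.8 CPM to 30.2, 36.6, 34.1 and 31.7 CPM, a log2 fold change of -1.39 ± 0.08. ZNF300, on chromosome 5, fell from 32.2 ± 1.71 to 11.8 ± 2.18 CPM (SD, n = 4). ZNF43, on chromosome 19, fell from 28.8 ± 2.26 to 11.4 ± 2.13 CPM. Both are KRAB genes. On chromosome 7, ZNF117 fell 2.50-fold and ZNF107 2.37-fold, and ZNF789 fell 2.24-fold. ZNF784 fell 2.33-fold, ZNF594 2.32-fold and ZNF541 2.04-fold. ZNF618, a protein that binds the methylation reader UHRF2, went from 18.6, 22.1, 21.8 and 21.5 CPM to 9.67, 10.0, 11.0 and 7.93 CPM. Near-identical paralogs can share reads, and the counting of such reads, or of antisense overlaps, is not described, so single values of clustered members are uncertain to that extent.

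The most abundant members by CPM did not share a direction. CPM is not corrected for length, so these values do not rank the genes per molecule. ZNF608 was first, with 527, 477, 456 and 452 CPM in the vehicle libraries and 265, 283, 286 and 272 CPM in the treated ones. That was a fall of 1.73-fold, and no vehicle library came near the treated range. ZNF217, a breast cancer oncogene product that works with the corepressors CtBP and CoREST, rose from 287, 247, 237 and 264 CPM to 309, 318, 308 and 318 CPM, or 1.21-fold. ZNF638, a nuclear RNA-binding protein, fell from 242, 223, 213 and 219 CPM to 177, 188, 220 and 182 CPM with 1 treated library inside the vehicle range, and its log2 fold change was -0.23 ± 0.06 (edgeR adjusted p = 0.00140). ZNF292 stayed uncalled at -0.06 ± 0.07 (adjusted p = 0.463, edgeR). ZNF146 rose 1.26-fold, from 116 ± 10.5 to 146 ± 4.01 CPM.

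By known role, the 3 members listed for ribosomes and translation were all higher, where 35.6% of genes tested at 5 CPM or more were; ZNF259, described above, was not on the list. The role lists are small, and none was tested against other genes. ZNF593 and ZNF622 are factors of large ribosomal subunit maturation, and ZNF598 is the ubiquitin ligase that recognises collided ribosomes. ZNF593 was at 11.5, 11.4, 13.1 and 15.1 CPM in the vehicle libraries and 26.7, 23.5, 22.1 and 23.8 CPM in the treated ones. ZNF622 was at 19.4, 24.8, 26.3 and 26.0 CPM and 47.9, 42.0, 39.3 and 45.8 CPM. Both pairs of groups were apart, with log2 fold changes of 0.93 ± 0.12 and 0.88 ± 0.10. ZNF598 rose less, from 58.3, 53.7, 59.9 and 54.4 CPM to 65.2, 58.6, 72.2 and 69.8 CPM with overlap between the groups, and its log2 fold change was 0.23 ± 0.08 (edgeR adjusted p = 0.00689).

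Of 6 members that bind RNA or act in splicing or mitosis, 1 was higher and 4 were lower (16.7% and 66.7%, against 35.6% and 33.1% of genes tested at 5 CPM or more). ZNF207 (BuGZ), which loads the checkpoint protein BUB3 on kinetochores and acts in splicing, rose from 87.4, 89.8, 87.2 and 87.4 CPM to 119, 135, 119 and 131 CPM, or 1.43-fold. The falls were smaller: -0.23 on the log2 scale for ZNF638, -0.31 for the splicing protein ZNF830, -0.36 for ZNF385A, which binds p53 and RNA, and -0.38 for ZNF346, which binds double-stranded RNA. In all 4 the groups overlapped. The call of ZNF346 (adjusted p = 0.0394, edgeR) was lost with DESeq2, with limma voom and in 6 of 8 fits without 1 library, all but those without vehicle 3 or CsA 3, with adjusted p-values from 0.0539 to 0.244 in those 6. ZNF326, a subunit of a complex that couples elongation to splicing, was not called at -0.04 ± 0.10.

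Among 10 promoter-binding activators and regulators, 5 were higher and 1 was lower (backgrounds 35.6% and 33.1%). ZNF143 and its closest paralog ZNF76 went in opposite directions: ZNF143 rose 2.37-fold as given above, while ZNF76 fell from 50.5, 47.7, 48.1 and 37.5 CPM to 33.1, 33.5, 31.5 and 29.4 CPM (log2 fold change -0.54 ± 0.09, edgeR adjusted p = 9.82e-07). ZNF148 (ZBP-89), a regulator that binds GC-rich promoters, rose from 54.3, 50.6, 45.9 and 57.1 CPM to 75.3, 87.5, 88.8 and 68.8 CPM. Its related factor ZNF281 rose 1.22-fold and ZNF263 rose 1.36-fold. ZNF24 was called at 0.20 ± 0.08 (adjusted p = 0.0230, edgeR), a call lost with DESeq2 (adjusted p = 0.0511) and without vehicle 4, CsA 2 or CsA 3, where edgeR's adjusted p was 0.0703, 0.0667 and 0.188. ZNF384, ZNF410, ZNF740 and ZNF335 were not called, with log2 fold changes from 0.05 to 0.06.

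Of 10 partners of corepressor complexes 8 were members, and of these 4 were higher and 2 lower (backgrounds 35.6% and 33.1%). ZNF516, which binds CtBP, rose from 67.5, 56.9, 53.4 and 52.6 CPM to 96.7, 87.7, 88.6 and 88.7 CPM, a log2 fold change of 0.64 ± 0.08. ZNF592 and ZNF532 belong with ZNF687 to a module that binds the chromatin reader ZMYND8. The first rose 1.38-fold, the second 1.25-fold and ZNF687 was not called at 0.07 ± 0.08. ZNF652, a partner of the corepressor CBFA2T3, fell from 56.9, 58.7, 55.5 and 49.7 CPM to 35.2, 39.6, 44.2 and 32.7 CPM, and ZNF395 fell from 61.3 ± 3.35 to 38.7 ± 3.07 CPM. With the rise of ZNF217 already given, the list held changes in both directions, and ZNF703 was not called at 0.06 ± 0.16.

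Of 9 KRAB members known for silencing transposable elements or other target loci, 1 was higher, 3 were lower and 5 were not called (11.1% higher and 33.3% lower, against 35.6% and 33.1%, so the share of falls was at the background). ZNF10, ZNF93, ZNF382 and ZNF649 lay at 5 to 10 CPM, where 16.7% of all genes were higher and 36.9% lower. ZNF268 and ZNF202 lay at 10 to 20 CPM, where the shares were 25.8% and 35.6%. ZNF93, which silences LINE-1 elements, went from 10.1, 11.4, 10.8 and 10.4 CPM to 5.97, 8.55, 5.52 and 6.39 CPM (log2 fold change -0.69 ± 0.17, edgeR adjusted p = 3.22e-04). ZNF91, the repressor of SVA elements from the same chromosome 19 region, was at 27.5, 24.1, 23.9 and 20.1 CPM and 20.6, 23.9, 27.6 and 24.0 CPM, with full overlap and a log2 fold change of -0.02 ± 0.11. ZNF445, which guards imprinted loci, fell from 72.2, 78.6, 70.9 and 72.0 CPM to 53.9, 52.8, 56.8 and 48.6 CPM, and ZNF268 fell 1.29-fold. ZNF274, which marks the ends of ZNF genes themselves with heterochromatin, was 1.13-fold higher (adjusted p = 0.0197, edgeR), a call lost without vehicle 1 or CsA 3, at adjusted p of 0.0568 and 0.0526. ZNF10, ZNF382, ZNF202 and ZNF649 had log2 fold changes between -0.08 and 0.12.

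The machinery that KRAB proteins recruit moved in both directions as well. Of 34 genes of corepressor and heterochromatin proteins, 6 were higher and 13 lower (17.6% and 38.2%, against 35.6% and 33.1%), with a median log2 fold change of -0.04. TRIM28 itself, named here as the hub of the list after its value was seen, went from 534 ± 31.5 CPM (SD, n = 4) to 460 ± 18.6 CPM, a log2 fold change of -0.21 (edgeR adjusted p = 0.000905). SETDB1, named in the same way, was not called at 0.07 (adjusted p = 0.362, edgeR). ATF7IP, the partner that stabilises SETDB1, rose from 47.0 ± 5.48 to 88.3 ± 2.58 CPM. UHRF1, which recognises half-methylated DNA, fell from 38.6 ± 2.11 to 20.9 ± 3.79 CPM. The histone deacetylase complex members HDAC1 and RBBP7 fell by 0.55 and 0.52 on the log2 scale.

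Other families of zinc finger genes were counted under the same test but without the minimum of 5 CPM. Some were like the ZNF genes, of which 21.6% were higher and 37.2% lower, and others were not. Among all genes tested, also without that minimum, 33.3% were higher and 33.5% lower. Among KLF genes, activators and repressors with a short row of fingers, 10 of 11 tested were higher and 0 lower, with KLF7 and KLF10 at log2 fold changes of 1.72 and 1.64. In the ZBTB family, 9 of 35 were higher and 12 lower (25.7% and 34.3%), close to the shares of the ZNF genes. Among them ZBTB43 rose by 1.43 and ZBTB42 fell by 2.21 on the log2 scale. Of 11 ZSCAN genes 0 were higher and 4 lower, of 5 ZKSCAN genes 1 was higher and 1 lower, of 15 ZFP genes 2 and 3, and of 6 PRDM genes 3 and 1. The difference between these families and the ZNF genes was not tested.

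In the genome the members were concentrated on chromosome 19, which held 179 of 384, ahead of chromosome 7 with 27 and chromosome 16 with 25. Of the 179, 28 were higher and 68 lower (15.6% and 38.0%), with a median log2 fold change of -0.19. Of the 205 members on other chromosomes, 55 were higher and 75 lower (26.8% and 36.6%), with a median of -0.07. The share of falls was alike in both groups and the share of rises smaller on chromosome 19, a difference that was not tested. Other genes of chromosome 19 at 5 CPM or more were higher in 196 and lower in 264 of 670 (29.2% and 39.4%), with a median of -0.04.

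Some stretches of neighbouring members carried 1 sign throughout, and others were mixed. Runs followed the RefSeq order of protein-coding genes, and non-member genes named ZNF, ZFP, ZSCAN, ZKSCAN or ZIK were passed over without ending a run. There were 50 runs of 2 or more neighbouring members, which held 234 of them. Runs of at least 5 numbered 19 and held 157 members, with 15 of these runs on chromosome 19. The split into runs was chosen after the values were seen. Over all 384 members 21.6% were higher and 37.2% lower, and over genes tested at 5 CPM or more 35.6% and 33.1%. In the run from ZNF737 to ZNF681, 11 of 15 members were lower, 0 were higher and all 15 log2 fold changes were below 0, with a median of -0.72. It held ZNF738 at -1.69, ZNF43 at -1.35, ZNF681 at -1.19, ZNF257 at -0.94, ZNF737 at -0.76, ZNF429 at -0.74, ZNF493 at -0.72 and ZNF100 at -0.72. ZNF714, ZNF85 and ZNF675 were called at -0.65, -0.64 and -0.47. Its uncalled members were ZNF708 at -0.31, ZNF431 at -0.14, ZNF430 at -0.03 and ZNF91 at -0.02, of which ZNF430 and ZNF91 were nearest to 0. The run just before it, from ZNF101 to ZNF486, had 4 of 7 lower and all 7 below 0, with ZNF253 at -1.06.

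The longest run, from ZNF772 to ZNF256 near the end of the long arm, was mixed. Of its 19 members 12 were lower and 1 was higher, with a median of -0.36. ZNF552 was at -1.41, ZNF551 at -0.82 and ZNF587 at -0.81, while ZNF550 was higher at 0.49. Runs with the opposite balance were also present. From ZNF577 to ZNF616, 3 of 8 were higher and 0 lower, with ZNF841 at 0.80, ZNF615 at 0.46 and ZNF350 at 0.43. From ZNF786 to ZNF746, on chromosome 7, 5 of 7 were higher, namely ZNF777 at 0.56, ZNF783 at 0.48, ZNF282 at 0.45, ZNF746 at 0.34 and ZNF212 at 0.20, while ZNF786 at the edge of the run was lower at -0.66. Of the 19 runs of at least 5 members, 8 had 0 members higher and 2 had 0 lower. Among all members rises were the rarer call, at 21.6% against 37.2% for falls. Neighbours in these clusters are paralogs, and sharing of reads between them was not tested.

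**Figure D4:**
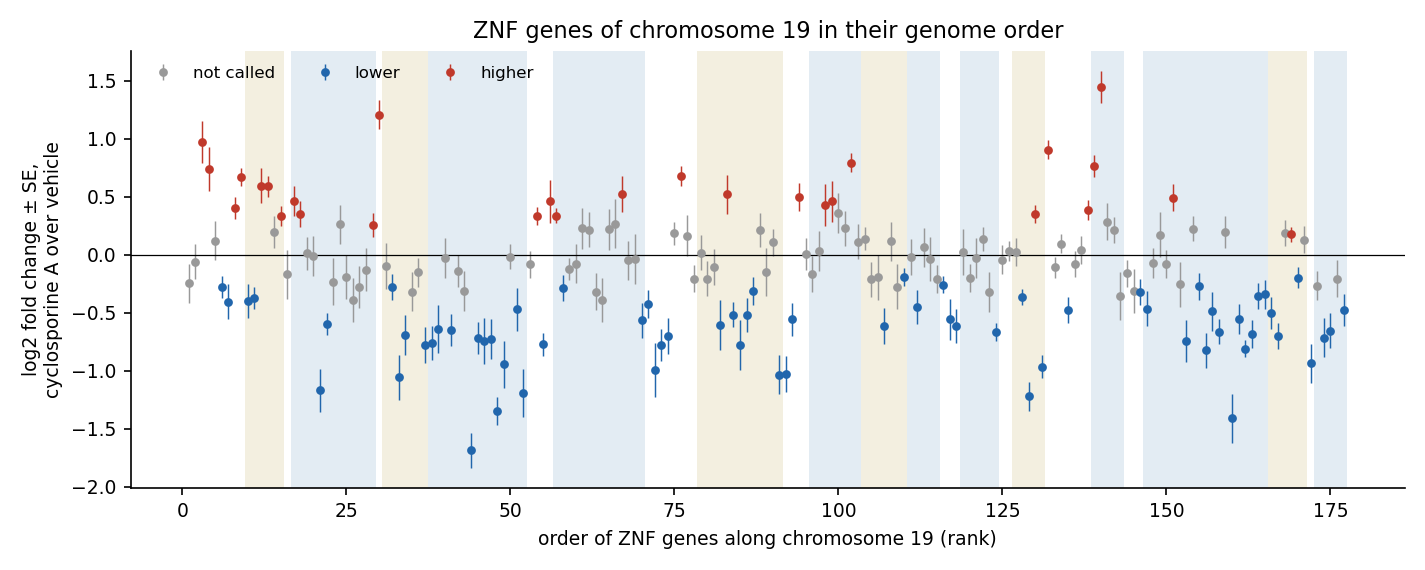
Log2 fold change with its SE (y axis) of the 177 protein-coding ZNF genes of chromosome 19 in their order along the chromosome (x axis, rank), coloured by call; shaded bands in 2 alternating tints are runs of at least 5 neighbouring members. The band from ZNF737 to ZNF681 lies wholly below 0 and reaches -1.69, and rises and falls are mixed over most of the remaining order.

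The start sites of the members were looked at in RefSeq promoter windows of 300 bases (250 before and 50 after the start, GRCh38.p14), which existed for 331 of the 384, with 424 start sites in all. The 12 motifs searched, on both strands and with matches allowed to overlap between motifs, are given by their letters with N for any base. The windows of 4 members with large rises are shown in lower case, with capitals for the motifs placed in the next sentences. The one of ZNF697 (chr1:119648217-119648516, minus strand) holds the ZNF143 motif at -79 to -73 from the start. Those of ZNF460 (chr19:57280235-57280534, plus strand), ZNF143 (chr11:9460762-9461061, plus strand) and ZNF593 (chr1:26169658-26169957, plus strand) hold a cAMP response element, CRE, at -31 to -24, -164 to -157 and -62 to -55, and that of ZNF143 also an ATF4 site at -76 to -69. Other searched motifs in these windows are left in lower case: 1 GC box each in ZNF697 and ZNF460, and 3 GC boxes and 2 CCAAT boxes in ZNF143. ZNF593 has 1 E-box, 1 ETS motif and 2 antioxidant response elements. Only 1 window is printed per gene, and over all its windows ZNF460 also had ATF4, E-box, AP-1, ETS and CCAAT matches. The windows of ZNF333, ZNF267, ZNF259, ZNF318 and ZNF275, which rose more than ZNF593, held no CRE, ATF4 site or ZNF143 motif.
ZNF697: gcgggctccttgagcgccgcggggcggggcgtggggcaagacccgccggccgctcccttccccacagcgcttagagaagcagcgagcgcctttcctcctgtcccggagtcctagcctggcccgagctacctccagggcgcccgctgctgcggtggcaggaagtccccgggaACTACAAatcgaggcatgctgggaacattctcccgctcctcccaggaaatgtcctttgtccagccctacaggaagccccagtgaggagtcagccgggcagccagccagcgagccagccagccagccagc
ZNF460: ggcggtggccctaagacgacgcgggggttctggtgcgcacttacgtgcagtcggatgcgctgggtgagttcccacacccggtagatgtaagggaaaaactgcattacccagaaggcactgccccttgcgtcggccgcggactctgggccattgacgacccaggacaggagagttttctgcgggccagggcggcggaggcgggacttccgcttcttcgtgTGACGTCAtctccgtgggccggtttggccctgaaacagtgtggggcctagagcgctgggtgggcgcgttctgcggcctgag
ZNF143: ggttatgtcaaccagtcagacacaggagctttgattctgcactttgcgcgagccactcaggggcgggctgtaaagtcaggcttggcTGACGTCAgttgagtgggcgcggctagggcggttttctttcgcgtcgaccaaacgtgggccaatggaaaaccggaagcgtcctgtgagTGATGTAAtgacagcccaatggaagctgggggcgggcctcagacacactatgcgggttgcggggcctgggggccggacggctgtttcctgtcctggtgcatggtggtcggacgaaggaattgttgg
ZNF593: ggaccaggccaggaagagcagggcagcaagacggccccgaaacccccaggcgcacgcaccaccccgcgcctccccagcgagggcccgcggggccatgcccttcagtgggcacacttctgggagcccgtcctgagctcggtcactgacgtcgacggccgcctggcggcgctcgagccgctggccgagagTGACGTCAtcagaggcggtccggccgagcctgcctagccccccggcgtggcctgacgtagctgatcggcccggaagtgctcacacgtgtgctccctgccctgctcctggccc

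The CRE, TGACGTCA, was found at 8 of 74 members that were higher (10.8%), 2 of 118 that were lower (1.69%) and 7 of 139 not called (5.04%). It was at 3.98% of the 9237 genes tested at 5 CPM or more and at 2.25% of all 27305 genes with a window. The 8 higher members were ZNF460, ZNF143, ZNF593, ZNF330, ZNF121, ZNF426, ZNF295 and ZNF562, with log2 fold changes of 1.45, 1.25, 0.93, 0.74, 0.59, 0.59, 0.49 and 0.33. The 2 lower ones were ZNF511 and ZNF266, at -0.48 and -0.37. The CCAAT box, CCAAT, had the opposite order, at 40.5% of higher, 61.0% of lower and 52.5% of uncalled members. The shares were 43.7% of genes at 5 CPM or more and 39.7% of all genes with a window. Members had 1.23 start sites for each higher and 1.36 for each lower gene, so lower members offered slightly more sequence. Genes tested at 5 CPM or more had 1.46 and so offered more than either, which was not corrected.

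The ETS motif CCGGAAGT was frequent in members of all calls, at 20.3%, 22.0% and 22.3% of higher, lower and uncalled ones. It was at 10.6% of genes at 5 CPM or more and 4.95% of all genes with a window. The ZNF143 motif ACTACAA was at 9.46%, 5.93% and 6.47% of higher, lower and uncalled members, against 4.87% and 3.43%. The ATF4 site TGATGNAA was at 4.05%, 1.69% and 0.719%, against 2.59% and 4.46%, which rests on 3, 2 and 1 genes. The AP-1 site TGANTCA was at 4.05% of higher and 9.32% of lower members, against 6.82% and 9.37%, and the E-box CACGTG at 10.8% and 5.93%, against 13.2% and 8.78%. The remaining patterns were the antioxidant response element TGACNNNGC (17.6% of higher and 11.9% of lower members, against 19.6% and 16.1%) and the GC box GGGCGG (73.0% and 65.3%, against 78.8% and 48.3%). The NRF1 motif GCGCATGC was at 5.41% and 7.63%, against 6.71% and 3.68%, the YY1 motif AAGATGGC at 8.11% and 5.08%, against 6.93% and 3.52%, and the TATA box TATAAA at 5.41% and 7.63%, against 7.60% and 14.0%. These shares describe letters in a window and not binding, and none was tested.

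ZNF genes were also looked up in the lists of AGO2 clusters, the stretches of RNA crosslinked to the protein that carries microRNAs. The authors deposited 1 list for each treatment, with 56985 clusters for the vehicle and 36812 for cyclosporine A, so the 2 treatments have no replicate check. A cluster in the 3' UTR was listed for 13 members (3.39%) in the vehicle list and 6 (1.56%) in the cyclosporine A list. The same shares over all genes tested at 5 CPM or more were 4.35% and 3.05%. Exon clusters were listed for 28 members (7.29%, against 10.2%) and 20 (5.21%, against 7.26%), and intron clusters for 125 (32.6%, against 41.0%) and 83 (21.6%, against 32.7%). In the all-Argonaute list of 19306 clusters, 2 members had a 3' UTR cluster (0.521%, against 1.15%) and 9 an exon cluster (2.34%, against 3.24%). The shares of members lay below those of other genes for 3' UTRs, exons and introns in both AGO2 lists, and above them for 5' UTRs and promoters in the cyclosporine A list. Members are also expressed lower than the genes they are set against, which was not corrected.

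**Figure D5:**
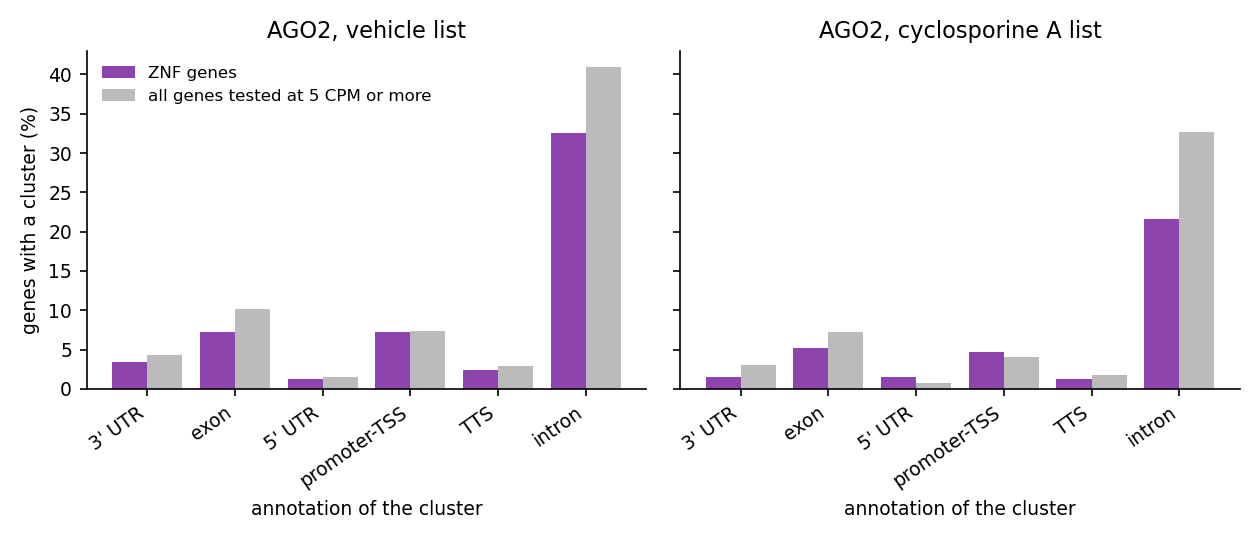
Percent of ZNF genes (purple) and of all genes tested at 5 CPM or more (grey) with at least 1 AGO2 cluster, by the annotation of the cluster, in the vehicle list (left) and the cyclosporine A list (right); TSS and TTS are transcription start and termination sites. Introns are the tallest class in both lists, at 32.6% and 21.6% of ZNF genes, and 3' UTRs reach 3.39% and 1.56%.

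Taking 3' UTR, exon and 5' UTR together, 44 members had 48 clusters in the vehicle list and 32 had 33 in the cyclosporine A list. The 15 members in both, counted by gene and not by site, were 34.1% of the first and 46.9% of the second. By site, 11 of the 48 and 11 of the 33 clusters overlapped a cluster of the other list. The same shares over all genes were not taken. Of the 48 clusters 27 lay on the strand of the gene and 15 on the opposite strand, and of the 33 the numbers were 13 and 14. In 27 of the 48 and 17 of the 33, a stretch of 13 bases also occurred in clusters at other places of the genome, so the placing of these is uncertain. The members with the most 3' UTR clusters over both lists were ZNF398, ZNF618 and ZNF544, with 2 each. For ZNF398 and ZNF618 these are 1 site found in both lists, and ZNF544 had a different site in each. ZNF618 fell as described, ZNF544 was lower at -0.20 and ZNF398 was not called at 0.14. ZNF398 shares a 13-base stretch with clusters at 8 other places.

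The sharing is shown by 3 exon clusters of the vehicle list, and they are printed with the bases that all 3 have in common in capitals, on the plus strand of hg19. They lie in exons of ZNF555 (chr19:2850605-2850626), ZNF57 (chr19:2915540-2915561) and ZNF559 (chr19:9449889-9449910), and their first 20 bases are the same.
ZNF555: TGTGGCTGTGGACTTCACCCtg
ZNF57: TGTGGCTGTGGACTTCACCCtg
ZNF559: TGTGGCTGTGGACTTCACCCag
The 3 genes did not move together: ZNF57 was higher at 0.97 ± 0.18, ZNF559 was lower at -0.40 ± 0.15 and ZNF555 was not called at -0.06 ± 0.15 on the log2 scale.

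Member clusters were searched for a 7-base match to the seed of an abundant microRNA. The 50 most abundant miRNAs of the miRNA libraries were used, of which 47 had a RefSeq sequence, in 31 families by seed, bases 2 to 8. Of the 48 vehicle clusters 3 (6.25%) held such a site and of the 33 cyclosporine A clusters 0 did, where 3.84% and 3.94% of the clusters of all genes at 5 CPM or more did. Only 1 of the 3 was on the strand of its gene. It lies in an exon of ZNF675 (chr19:23844931-23844959, minus strand, hg19), and the site for miR-27a-3p and miR-27b-3p is in capitals, as are the seeds of both miRNAs.
ZNF675: gcctttgACTGTGAagagacatgagatgg
miR-27a-3p: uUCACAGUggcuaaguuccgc
miR-27b-3p: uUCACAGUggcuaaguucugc
Both miRNAs share the seed. miR-27a-3p was at 1932, 2295, 1986 and 2346 CPM in the vehicle and 3253, 3068, 2642 and 2646 CPM in the treated miRNA libraries, without overlap. miR-27b-3p was at 4060, 5693, 4526 and 4461 CPM and at 4384, 5210, 3780 and 4377 CPM, with overlap. ZNF675 mRNA went from 8.37, 11.6, 8.05 and 7.68 CPM to 5.97, 7.57, 5.29 and 7.16 CPM, a log2 fold change of -0.47 ± 0.18 (edgeR adjusted p = 0.0196). The cluster shares a 13-base stretch with clusters at 8 other places.

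Members with and without a cluster in an exon or UTR were also set side by side. Clusters on either strand were counted, and only 27 of 48 (vehicle) and 13 of 33 (cyclosporine A) were known to lie on the gene's strand. Those that share a 13-base stretch with other places, 27 and 17, were kept. Clusters came from cells treated for 24 h and mRNA calls from 48 h. Of the 61 with a cluster in either AGO2 list, 20 were higher and 21 lower (32.8% and 34.4%), with a median log2 fold change of -0.03. Of the 323 without one, 63 were higher and 122 lower (19.5% and 37.8%), with a median of -0.15. The median level was 15.4 and 16.8 CPM. The difference between the 2 groups was not tested, since the lists have no replicates.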

How the data were processed

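The submitters' processing notes name build hg19 and the tools HTSeq, TopHat, Bowtie, DESeq2, cutadapt and CASAVA 1.8.2, with roles, annotation, strand setting and cluster caller not given in the sources used here. Raw read counts per gene and per miRNA were deposited by the authors for 8 libraries each, and lists of Argonaute clusters with a score, whose scale is not stated. The deposited score was used only to keep clusters at or above the median of a list. The members, gene lists and runs were chosen with earlier results of these data known.

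Counts were filtered with filterByExpr, scaled by TMM and tested with edgeR 4.0.16 (quasi-likelihood, groups only, R 4.3.3), and p-values were adjusted by Benjamini-Hochberg over 12855 genes; the scripts were tested on simulated data. Alternatives were DESeq2 1.42.0, limma 3.58.1 (voom), RLE scaling, no filter, a replicate block, leaving out each library, and member minimums of 10 and 1 CPM. With 4 libraries a group, and 3965431 to 7041604 counts each, counting error is largest for members near 5 CPM. Library pairs within a group differed beyond counting noise, so none was merged.

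Named members were the 12 largest rises and falls among those called with at least 50 mean counts and no overlap between groups, the 5 highest by CPM, all members of the role lists, those next to the minimum, those with the most 3' UTR AGO2 clusters, and up to 4 genes of other lists by p-value; members named for their runs, promoters or clusters were chosen after their values were seen. All 384 symbols matched RefSeq (GRCh38.p14), which gave chromosomes and order, 14 of them under another current symbol, and 6 are transcribed pseudogenes. Cluster positions are on hg19. A split of members by protein domains was planned but not run, and the authors' own fold changes were not used here.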

Additional observations from a re-analysis of the deposited data

Results flagged for a closer look

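In 124 groups of 4 libraries (the treated and the vehicle values of 62 named members), 6 held a library far from the other 3, and chance alone sets apart about 1 group in 20. ZNF738 was at 22.6 CPM in vehicle 4, where the other vehicle libraries were at 18.8 to 19.3 CPM. ZNF207 was at 89.8 CPM in vehicle 2, against 87.2 to 87.4 CPM. ZNF326 was at 24.8 CPM in vehicle 4, against 29.8 to 30.7 CPM, and ZNF382 at 7.45 CPM in the same library, against 8.65 to 8.68 CPM. ZNF445 was at 78.6 CPM in vehicle 2, against 70.9 to 72.2 CPM. ZNF516 was at 96.7 CPM in CsA 1, against 87.7 to 88.7 CPM. For ZNF738, ZNF207, ZNF445 and ZNF516 the groups stayed apart with these libraries included, and ZNF326 and ZNF382 were not called.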

How the results depend on the processing

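The 83 higher and 143 lower members became 70 and 114 with DESeq2, 83 and 143 with RLE scaling, 84 and 138 without the filter on low counts, 83 and 141 with limma voom, and 74 to 83 and 127 to 143 without 1 library. The median log2 fold change stayed between -0.148 and -0.107. With a minimum of 10 CPM, 73 of 277 members were higher and 108 lower, and with 1 CPM 89 and 163 of 472. The shares over all genes at these minimums were not taken. Since the background share depends on level, these counts are not set against it. Of the 226 called members 180 kept their call in all 13 alternative fits (68 higher, 112 lower), and 0 changed sign. Among the named members, the calls of ZNF346, ZNF24 and ZNF274 were lost in some fits, as given beside them.

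Same-numbered vehicle and treated libraries did not deviate together (r = -0.08, 0.01, -0.06 and 0.03), so the numbers were not taken as pairs. With a replicate block, 81 members were higher and 141 lower, the median was -0.143, and ZNF346 had an adjusted p of 0.0502 (edgeR).

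With only clusters at or above the median score of their list, members with a 3' UTR AGO2 cluster dropped from 13 to 6 (vehicle) and from 6 to 2 (cyclosporine A). The split by protein domains and its looser pattern were not run, since no protein sequences were at hand. Below about 10 CPM, counts limit what can be called.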
